A study of Mus musculus with 4 samples.

Results

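The genes for the 4 receptors of the opioid family, Oprm1, Oprd1, Oprk1 and Oprl1, and Pnoc, the precursor of the Oprl1 ligand nociceptin, were followed across areas of the mouse forebrain. These 5 genes were taken by symbol from the 19465 genes of a spatial expression experiment, and all 5 were found. Formalin-fixed coronal sections through the striatum came from the brains of 4 untreated mice, 2 of them wild type, labelled brain control, and 2 heterozygous for Celsr3, labelled hz_Celsr3, each genotype having biological replicates 1 and 2. The labels name no strain or age. RNA was read with gene probes on a grid of barcoded spots (Visium CytAssist), where a spot is a small region that can hold several cells of different types. The spot names divide the 12602 spots into 4 barcode sets, numbered 1 to 4 by their ending, and 0 of the sets could be tied to a mouse, so no comparison of genotypes was made and every value is given by set.

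All 4 receptors couple to inhibitory G proteins, which lower cyclic AMP, open inwardly rectifying potassium channels and close calcium channels, so that a neuron that carries them becomes less excitable or releases less transmitter. Oprm1 encodes the mu receptor, the main target of morphine, Oprd1 the delta receptor, which binds enkephalins, and Oprk1 the kappa receptor, which binds the dynorphins cut from prodynorphin. Oprl1 encodes the nociceptin receptor, a relative with little affinity for the classical opioid peptides, whose own peptide is cut from the product of Pnoc. In the striatum, mu receptors are a classical label of striosomes, small compartments set in a larger matrix.

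The sets held 3055, 2808, 3445 and 3294 spots with 174761560, 109663162, 165184912 and 90752475 counts, and 4744 distinct barcodes were used, of which 3376 occurred in over 1 set. Clustering gave 30 clusters without the 5 genes among the 2000 clustering genes, and marker lists turned these into 18 areas, 14 with a name and 4 single clusters without one. The same area was not always the same cluster in every set. The striatum of sets 1 and 3 was mostly a cluster led by Syndig1l and Scn4b, and that of set 2 mostly another cluster. Set 4 drew part of its striatum from a Lrrc10b- and Pdyn-led cluster, and nearly all of its cortex from clusters with Arc among their leading genes. In the largest striatal cluster 20 of 20 striatal markers were at least 2-fold higher than in other spots, which restates the rule that named it. The deep cortical clusters led by Fezf2, by Arc and by Npnt had only 2 of 10 layer 5 markers at 2-fold. Their layer 5 lists averaged log2 folds of 0.69, 0.49 and 0.73, where at least 0.4 was required. The Trbc2-led deep cluster had 4 of 10 layer 6 markers at 2-fold and an average of 1.15. The Arc-led deep cluster held 357 of the 365 deep-layer spots of set 4, so the deep layers of that set rest on a weakly marked name.

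Levels are given as CPM, a gene's summed counts in an area and set for every 1000000 counts of all genes there. Probes cover part of each transcript, so a level says nothing about the level of another gene and each gene is compared with itself. Intervals are exact 95% intervals that cover counting error only. Within a set, a gene was called higher or lower in an area where its level was at least 2-fold above or below that of all other spots in every set holding at least 30 spots of the area. Of 90 pairs of gene and area, 7 were called higher and 23 lower, where by area 0.552% to 4.38% of all genes were called higher and 1.06% to 9.69% lower. Within a spot, fewer cells of a type and less RNA per cell cannot be told apart.

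**Figure D1:**
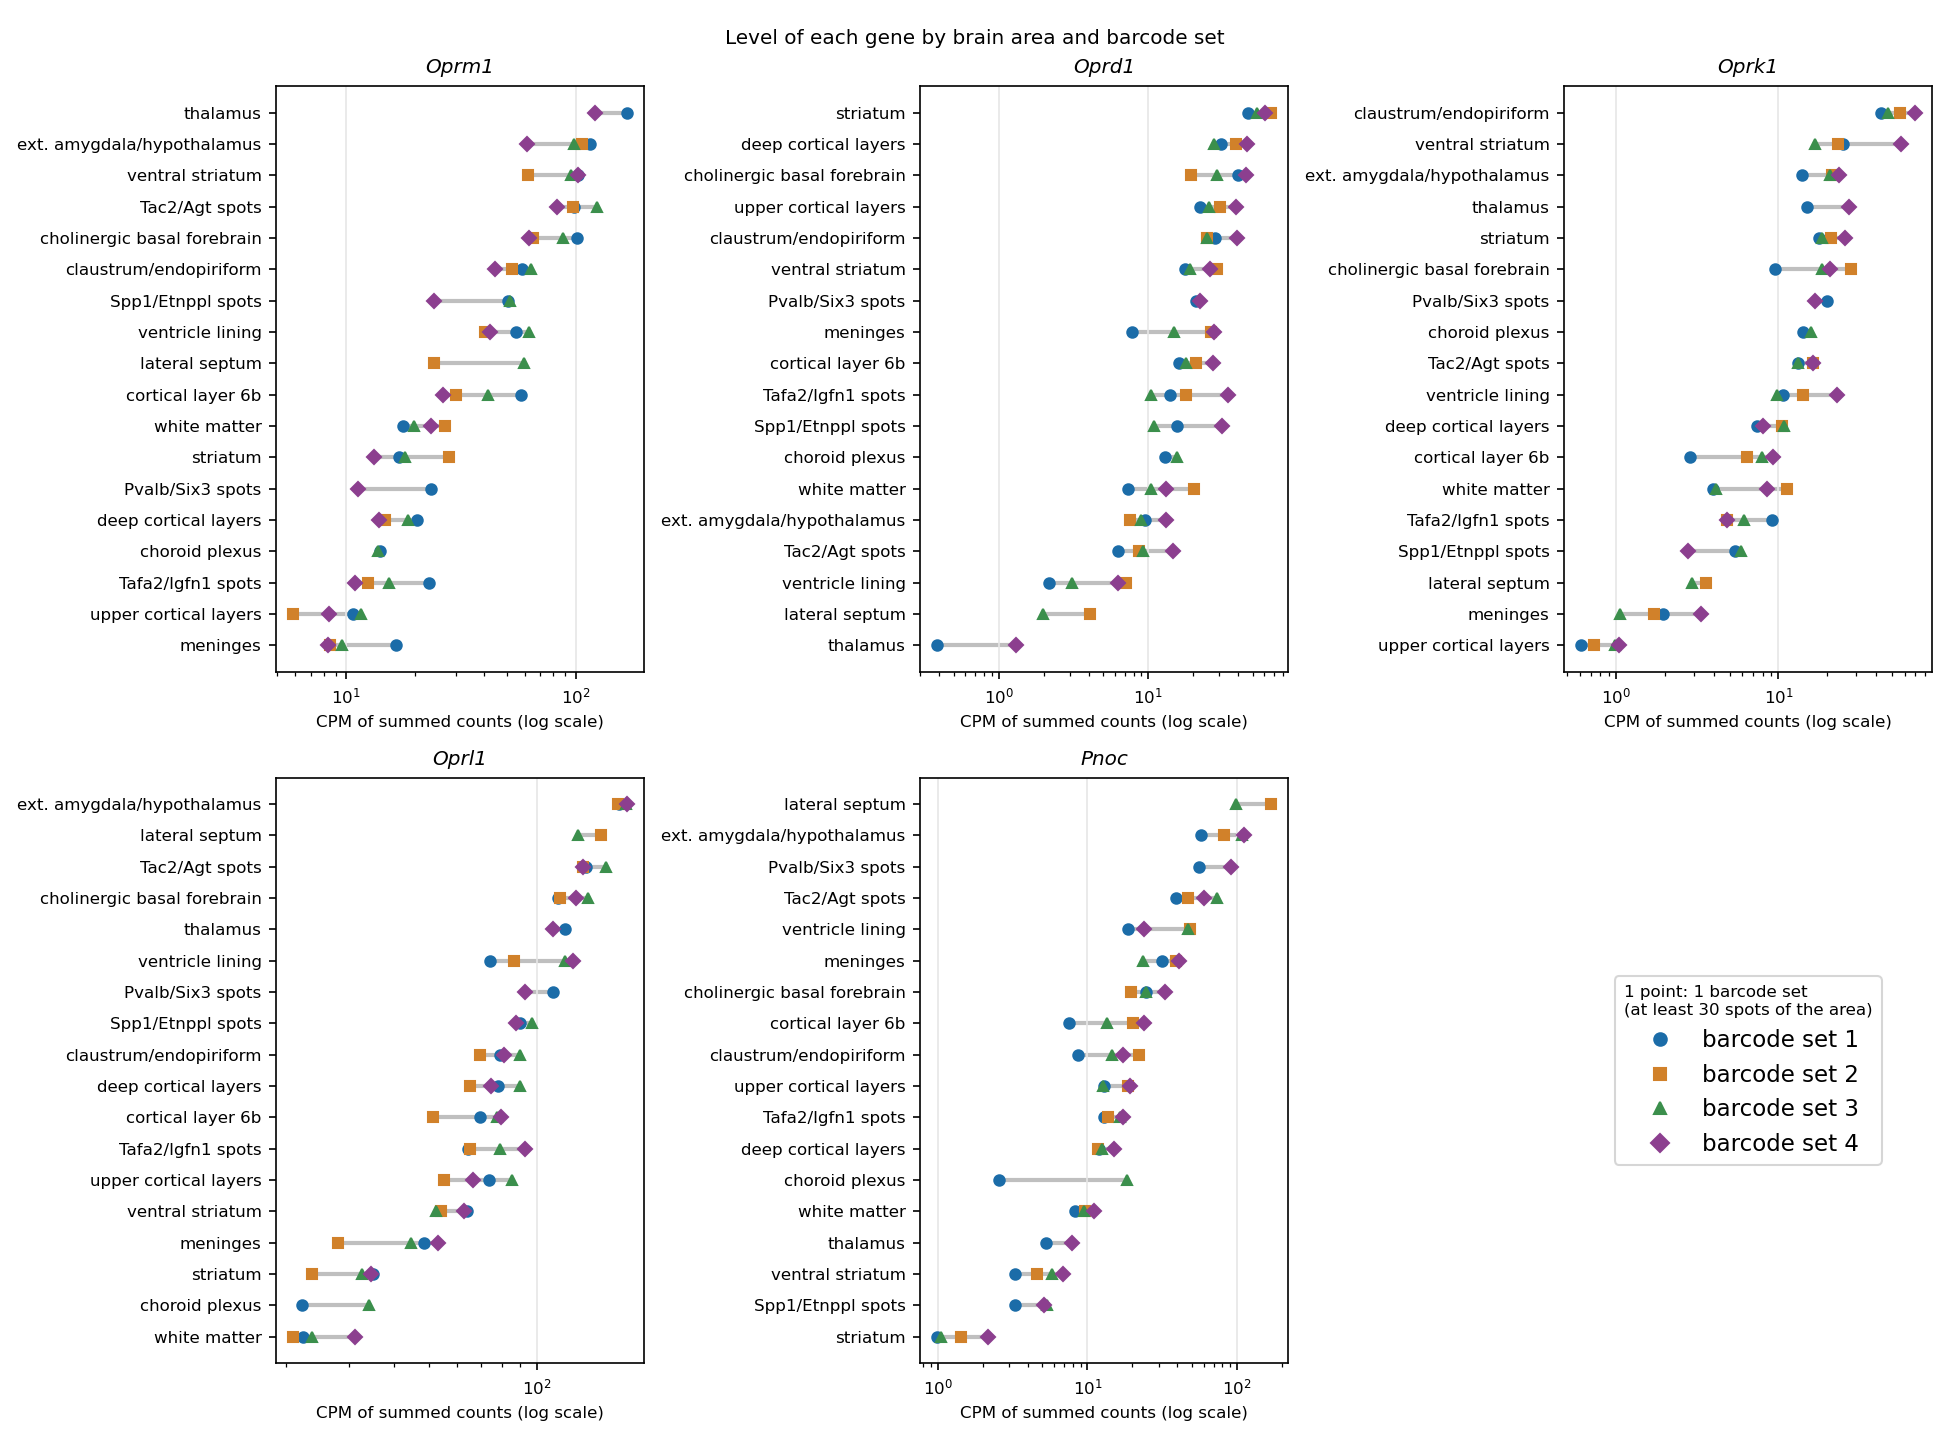
Level of each of the 5 genes in CPM (horizontal, log scale) by area, ordered by the median over barcode sets, with 1 point per set of at least 30 spots and a grey line from the lowest to the highest set. Oprm1 was highest in thalamus, Oprd1 in striatum, Oprk1 in claustrum and endopiriform spots, Oprl1 in extended amygdala and hypothalamus, and Pnoc in lateral septum.

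Oprm1, the mu receptor, was highest in the thalamus. Only sets 1 and 4 held over 30 thalamic spots, with 148 and 299. Oprm1 reached 168 CPM (95% interval 161 to 176, 2173 counts) in set 1 and 122 CPM (116 to 129, 1317 counts) in set 4. Other spots of those sets held 43.3 and 31.5 CPM, so the thalamus was 3.89-fold and 3.88-fold higher. In this comparison 2.35% of 10144 genes were called higher. An Oprm1 count was present in 91.9% and 76.6% of thalamic spots, and in 62.2% and 55.6% after thinning each spot to 10000 counts, which left out 1, 26, 4 and 168 shallower spots in sets 1 to 4. In the upper cortical layers those shares were 24.5% to 53.2% as deposited and 6.29% to 12.7% thinned.

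The thalamic Oprm1 signal came mainly from a cluster led by Gbx2, Calb2 and Tcf7l2, the first a transcription factor of developing thalamic nuclei. There Oprm1 stood at 217 CPM in set 1 and 178 CPM in set 4. In the other thalamic cluster, led by Cbln1, C1ql2 and Plekhg1, it stood at 61.3 and 21.6 CPM. The level thus differed between the thalamic clusters by more than it differed between the sets. Over all thalamic spots, squared deviations were 4.54 to 9.57 times those expected from counting alone, with up to 58 Oprm1 counts in a spot. The part of the difference between the clusters in this variation was not separated.

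Below the thalamus, each area's range of Oprm1 over sets overlapped that of the next lower area, down to the upper cortical layers. The order of neighbouring areas is therefore not fixed by these data. Areas further apart could be separate, and every value of the extended amygdala and hypothalamus lay above every value of the upper and deep cortical layers. The extended amygdala and hypothalamus held 115, 107, 98.1 and 61.4 CPM of Oprm1 in sets 1 to 4. Unnamed spots led by Tac2, Agt and Lhx5 held 98.1, 97.2, 124 and 83.1 CPM, and the cholinergic basal forebrain, marked by Chat and Slc18a3, held 101, 65.2, 88.5 and 62.9 CPM. None of these areas was called, since their ratios to other spots fell as low as 1.52 to 1.94 in some set. Oprm1 was called lower in 6 areas, among them the upper cortical layers at 10.7, 5.85, 11.6 and 8.44 CPM and the deep cortical layers at 20.3, 14.7, 18.6 and 13.9 CPM. The shares of all genes called lower in these areas were 4.53% and 2.93%. The others were meninges (8.30 to 16.5 CPM), where 1.85% of genes were called lower, choroid plexus (13.8 and 14.1 CPM), where 9.69% were, and unnamed spots led by Tafa2 and Igfn1 (10.9 to 23 CPM), where 3.20% were; the sixth area was the Pvalb- and Six3-led spots described with Pnoc.

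In the striatum, Oprm1 separated the ventral from the remaining spots. The ventral striatum, a cluster led by Pdyn and Wfs1 that carried the list of ventral markers, held 102, 61.8, 95.3 and 102 CPM of Oprm1, and the rest of the striatum 16.9, 28, 18.1 and 13.2 CPM. The lowest ventral value lay above the highest value of the remaining striatum. Ventral over remaining striatum gave ratios of 6.02, 2.20, 5.28 and 7.74, in a comparison where 1.16% of genes were called higher. Set 2 had both the lowest ventral and the highest remaining striatal level. The ventral area depends on the clustering: it received no name at resolution 0.4 or without centring, and with spots assigned by marker score its median log2 ratio of Oprm1 to all other spots was 0.39 instead of 1.15. Leaving out set 2 gave 0.63, and leaving out set 3 gave 1.45 with the lowest set at -1.01.

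Among spots of the remaining striatum, Oprm1 followed the summed level of a list of 7 striosome genes (Kremen1, Sema5b, Lypd1, Bach2, Kcnip1, Tshz1 and Nnat). From the lowest to the highest of 3 equal parts of the spots ranked by that sum, Oprm1 went from 12.5 to 25.3 CPM in set 1 and from 21.8 to 36.4 CPM in set 2. In set 3 it went from 12.2 to 25.3 CPM, and in set 4 from 7.48 to 18.6 CPM. The ratios were 2.02 (1.61 to 2.54), 1.67 (1.37 to 2.05), 2.07 (1.66 to 2.61) and 2.48 (1.54 to 4.10). A ratio of at least 1.5 in each of the 4 sets, a limit chosen after the values were seen, was met by 0.355% of 10137 genes. Median counts per spot in the lowest and highest parts were 51107 and 46928 in set 1 and 25003 and 23220 in set 4, and in all 4 sets the part with more Oprm1 had the lower median depth.

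Single genes of the list differed in this respect. Ranking striatal spots by Lypd1, Sema5b or Nnat alone gave an Oprm1 interval above 1 in 4 of 4 sets, by Tshz1 in 3, by Bach2 and Kremen1 in 2 each, and by Kcnip1 in 0. Some lower limits were barely above 1, at 1.01 for Sema5b in set 2 and 1.03 for Lypd1 and Kremen1 in set 1. Squared deviations of striatal Oprm1 were 1.44 to 2.11 times those expected from counting, an excess that these intervals leave out. Lypd1 and Nnat made up 32.8% and 28.1% of the summed list. Nnat was itself called higher in the ventral than in the remaining striatum, the only 1 of the 7 genes, with 1.16% of all genes. The median log2 ratio of the 7 genes in that comparison was 0.89, against 0.09 over all genes tested. The part of position within the striatum in the rankings by this list, with or without Nnat, was not tested. Without Nnat, the Oprm1 ratios were 1.72, 1.33, 1.70 and 2.72. With the summed matrix genes Id4, Sv2b, Epha4 and Calb1 subtracted on the log2 scale they were 1.75, 1.36, 1.56 and 2.08, each with an interval above 1. Ranges of a score are not cell types.

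**Figure D2:**
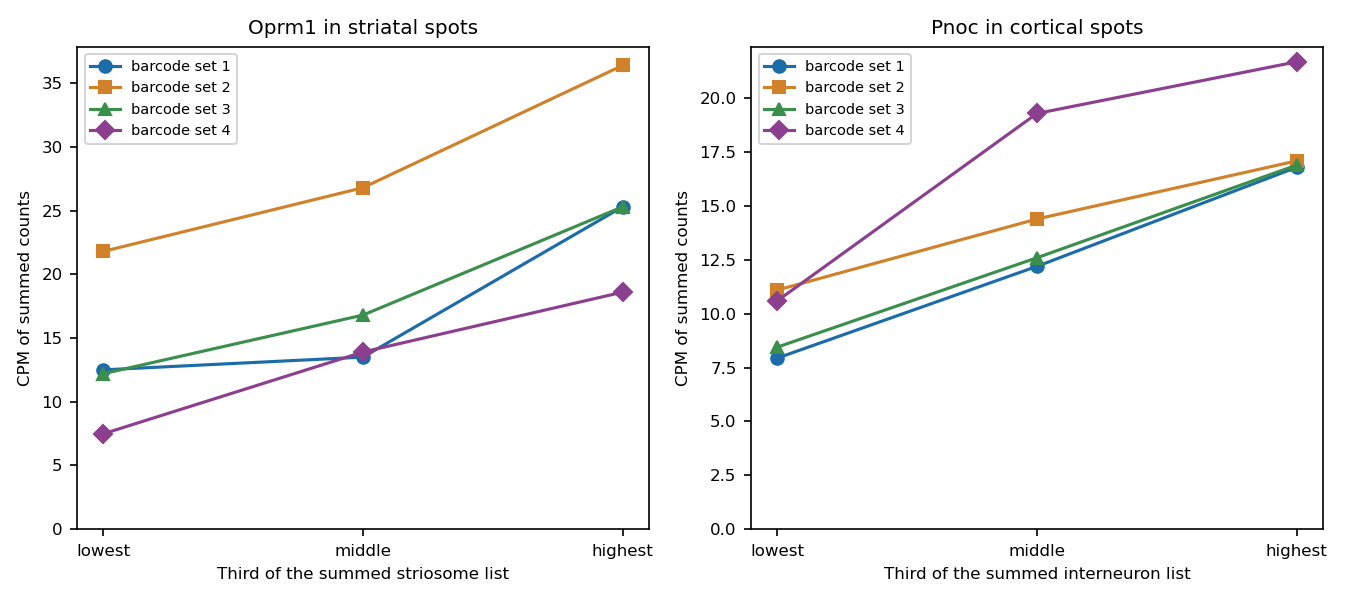
Levels in CPM of Oprm1 in striatal spots (left) and Pnoc in cortical spots (right), in 3 equal parts of the spots of each barcode set ranked by the summed striosome list or interneuron list, with 1 line per set. Both genes were higher in the highest than in the lowest part in all 4 sets, Oprm1 by 1.67-fold to 2.48-fold and Pnoc by 1.54-fold to 2.12-fold.

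The same ranking by the striosome sum was read for the other 4 genes, and differences between genes were not tested. Oprk1 gave ratios of 1.63, 1.67, 1.48 and 1.27 between the highest and lowest parts, and Oprl1 gave 1.34, 1.50, 1.17 and 1.40. The interval included 1 for Oprk1 in set 4 and for Oprl1 in set 3. Oprd1 gave 0.820, 0.874, 1.01 and 0.918, with the intervals of sets 1 and 2 below 1. Pnoc rested on 4 to 15 counts in a part, and all its intervals included 1.

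In the cortex, Oprm1 was low except along the deepest layer and in the claustrum. Cortical layer 6b, marked by Ccn2 and Cplx3, held 57.9, 30.2, 41.3 and 26.5 CPM of Oprm1, which was 2.85, 2.06, 2.22 and 1.90 times the level of the deep layers. Set 4 missed the 2-fold limit, and 2.25% of genes passed it in all sets. Claustrum and endopiriform spots, a cluster led by Nr4a2, Ccn2 and Ntng2, held 58.5, 52.6, 63.6 and 44.4 CPM, or 2.88, 3.58, 3.41 and 3.19 times the deep layers, where 1.12% of genes were called higher. The layer 6b markers Ccn2, Nxph3 and Cplx3 were among the leading genes of this cluster beside Nr4a2, Ntng2 and Gnb4, and its claustral list averaged a log2 fold of 1.99 against 1.71 for the next list, so the name is a close one. Deep over upper layers gave Oprm1 ratios of 1.90, 2.51, 1.60 and 1.65.

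Oprd1, the delta receptor, had its highest level in the striatum. It stood at 46.9 CPM (44.3 to 49.5), 66.7 CPM (63.3 to 70.2), 53.7 CPM (51.1 to 56.4) and 60.2 CPM (55.5 to 65.2) in sets 1 to 4, on 1284, 1441, 1590 and 608 counts. Every set lay above the highest value of the next area, the deep cortical layers, at 30.9, 38.5, 27.5 and 46.1 CPM. The gap was narrow, since the interval of set 4 in the deep layers, 42.4 to 49.9 CPM, overlapped that of set 1 in the striatum. The cholinergic basal forebrain reached 45.4 CPM in set 4. Within each set the striatum was above the deep layers. The striatum exceeded all other spots by 2.72-fold, 2.63-fold, 2.87-fold and 2.31-fold, and 2.94% of genes were called higher there. Between 74.6% and 85.7% of striatal spots had an Oprd1 count, and 38.6% to 48.2% after thinning, against 3.38% and 4.35% of thalamic spots as deposited and 1.35% and 1.01% thinned.

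Within the striatum the order of Oprd1 was the opposite of that of Oprm1. Ventral spots held 17.7, 28.9, 19.1 and 26.1 CPM of Oprd1, which was 0.377, 0.433, 0.356 and 0.434 times the level of the remaining striatum. A drop of at least 2-fold in all 4 sets was seen for 0.306% of genes, 31 of 10144. The highest ventral value lay below the lowest value of the remaining striatum.

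Oprd1 was called lower in 5 areas. The thalamus was the lowest, at 0.387 CPM (0.126 to 0.904, 5 counts) in set 1 and 1.30 CPM (0.710 to 2.18, 14 counts) in set 4. The Gbx2-led thalamic cluster, where Oprm1 had its highest level, held 0 Oprd1 counts in set 1 and 9 in set 4. Lateral septum held 4.09 CPM in set 2 and 1.99 CPM in set 3 on 23 and 21 counts, and the ventricle lining held 2.19 to 7.08 CPM on 6 to 13 counts. In the extended amygdala and hypothalamus Oprd1 stood at 9.52, 7.60, 8.99 and 13.1 CPM, a call that ended at resolution 0.4 with a log2 ratio of -0.60 in the highest set. The shares of genes called lower were 5.21% in thalamus, 3.85% in septum, 3.01% in the ventricle lining and 2.87% in the extended amygdala and hypothalamus. The Tac2- and Agt-led spots, at 6.33 to 14.6 CPM, were the fifth, with 3.38% of genes called lower. Compared with the thalamus directly, the extended amygdala and hypothalamus held 24.6 and 10.1 times the Oprd1 level in sets 1 and 4, where 3.57% of genes were called higher. For Pnoc the same comparison gave 11 and 14.2 times.

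In the cortex, Oprd1 differed little between upper and deep layers. Upper layers held 22.3, 30.2, 25.6 and 38.7 CPM, and deep over upper layers gave 1.38, 1.28, 1.07 and 1.19, with the interval of set 3 including 1. Layer 6b held less Oprd1 than the deep layers in all 4 sets, with ratios of 0.521, 0.540, 0.655 and 0.590 that did not reach 2-fold. Among deep clusters, one led by Trbc2 and Myl4, with the layer 6 markers Rprm and Garnl3 among its leading genes, held 38.1, 45 and 33.6 CPM in sets 1 to 3. The cluster led by Fezf2 held 23.6, 33.7 and 22.8 CPM.

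Oprk1, the kappa receptor, was highest in claustrum and endopiriform spots. It reached 43.0 CPM (37.3 to 49.3), 55.8 CPM (45.6 to 67.4), 47.1 CPM (39.9 to 55.2) and 69.8 CPM (62.1 to 78.1), on 71, 39, 57 and 142 spots. All other spots held 11, 13.2, 11.6 and 15.9 CPM, which gave ratios of 3.91, 4.24, 4.05 and 4.4. The share of genes called higher there was 0.552%, or 56 of 10144. The range over claustral spots, 43.0 to 69.8 CPM, overlapped that of the ventral striatum, which reached 56.6 CPM in set 4. An Oprk1 count was present in 73.2% to 84.5% of claustral and endopiriform spots, and in 28.1% to 44.4% after thinning. At the finer clustering resolution of 1.2 the marker rule gave the claustral name to another cluster, seen in 1 set, with a log2 ratio of 0.08, while the clusters holding most of the spots described here gave a median of 1.95 over 4 sets. Clustering without set 1 gave a median log2 ratio of 1.43 with 0.11 in the lowest set, which ended the call.

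Upper cortical layers, by contrast, were almost without Oprk1. They held 0.606 CPM (0.262 to 1.19), 0.732 CPM (0.365 to 1.31), 0.979 CPM (0.571 to 1.57) and 1.04 CPM (0.551 to 1.77), on 8, 11, 17 and 13 counts. These levels were 0.0474, 0.0458, 0.0718 and 0.0488 times those of all other spots, where 4.53% of genes were called lower. A count was present in 3.62% to 6.45% of upper-layer spots, and in 0% to 0.850% after thinning. Deep layers held 7.38, 10.5, 10.9 and 8.01 CPM, so deep over upper layers gave 12.2, 14.3, 11.2 and 7.73, and 1.50% of genes were called higher in the deep layers.

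Within the deep layers, Oprk1 was uneven. The Trbc2- and Myl4-led cluster held 12.6, 17 and 20 CPM in sets 1 to 3, against 3.65, 5.57 and 4.23 CPM in the Fezf2- and Adra1d-led cluster. The deep cluster led by Npnt and Tshz2 held 2.14 CPM in set 1 and 0.490 CPM in set 3, and the Arc- and Myl4-led cluster that made up most deep spots of set 4 held 8.15 CPM. Layer 6b, which lies below these clusters, held 2.86, 6.44, 7.90 and 9.28 CPM on 13 to 39 counts. From deep layers to claustrum, Oprk1 was higher by 5.82-fold, 5.32-fold, 4.30-fold and 8.71-fold.

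**Figure D3:**
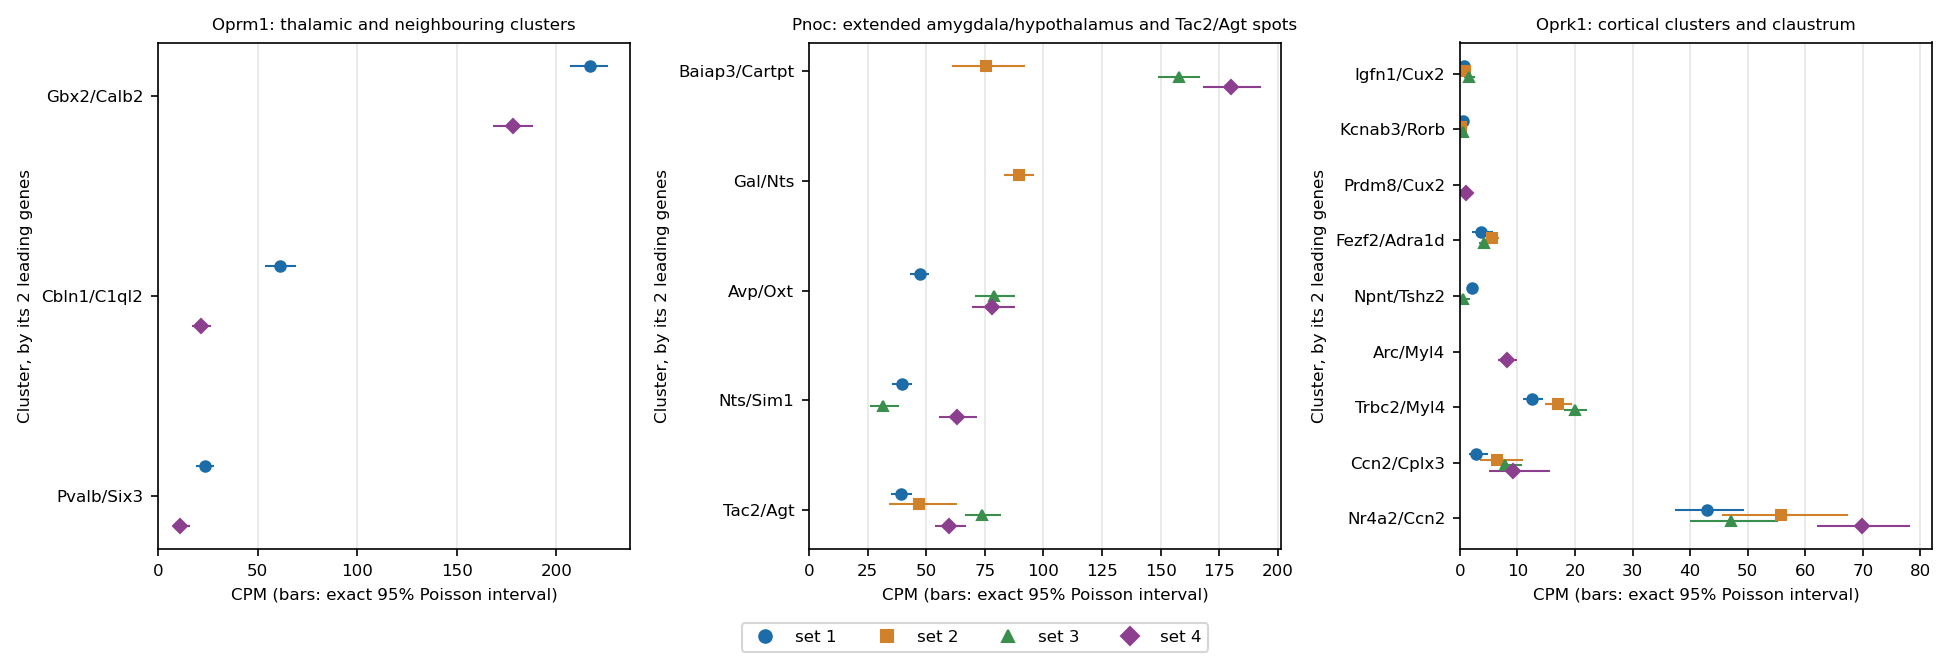
Levels in CPM with exact 95% Poisson intervals in single clusters, each named by its 2 leading genes, for Oprm1 in thalamic and Pvalb/Six3 spots, Pnoc in extended amygdala, hypothalamic and Tac2/Agt spots, and Oprk1 in cortical and claustral clusters; 1 point per barcode set of at least 30 spots. Oprm1 was 178 to 217 CPM in the Gbx2/Calb2 cluster, and Oprk1 stayed at or below 1.50 CPM in the 3 upper-layer clusters.

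Elsewhere Oprk1 was moderate. The ventral striatum held 24.9, 23.4, 16.7 and 56.6 CPM, a range of 3.38-fold between sets with set 4 on top, and the remaining striatum held 17.7, 21.1, 18.7 and 25.7 CPM. Ventral over remaining striatum gave 1.40, 1.11, 0.893 and 2.21, so these areas were not separated in sets 2 and 3. Thalamus held 15 and 27.3 CPM and the extended amygdala and hypothalamus 13.9, 21.4, 20.9 and 23.8 CPM. Besides the upper cortex, Oprk1 was called lower in the lateral septum (3.56 and 2.94 CPM), the meninges (1.06 to 3.32 CPM on 3 to 5 counts) and unnamed spots led by Spp1 and Etnppl (2.77 to 5.89 CPM). The shares of all genes called lower were 3.85% in the septum, 1.85% in the meninges and 5.23% in the Spp1- and Etnppl-led spots. Septum over extended amygdala and hypothalamus gave Oprk1 ratios of 0.166 and 0.141, and 1.68% of genes were called lower.

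Oprl1, the nociceptin receptor, varied least of the 5 genes, with 7.57-fold between its highest and lowest area medians, against 16.1-fold for Oprm1, 67.6-fold for Oprd1, 60.1-fold for Oprk1 and 108-fold for Pnoc. It was highest in the extended amygdala and hypothalamus, at 169.9, 169, 178 and 179 CPM in sets 1 to 4. The ratios to other spots were 2.22 to 2.84, where 1.68% of genes were called higher. Clustering at resolution 0.4 ended this call, with a log2 ratio of 0.41 in the lowest set. A count was present in 93.0% to 98.4% of these spots and in 75.3% to 81.9% after thinning, against 36.5% to 41.6% and 13.3% to 23.4% in white matter. The next area, lateral septum, held 151 and 130.1 CPM, below all 4 values of the extended amygdala and hypothalamus.

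Within that area, Oprl1 was 179.9, 197 and 188 CPM in the cluster led by Avp and Oxt, the genes of the neurohypophysial hormones vasopressin and oxytocin, in sets 1, 3 and 4. The Baiap3- and Cartpt-led cluster held 160.4, 189 and 212 CPM in sets 2 to 4, and the Nts- and Sim1-led cluster 140.2, 136 and 131 CPM in sets 1, 3 and 4. In the thalamus, the Gbx2-led cluster held 152 and 138 CPM of Oprl1 and the Cbln1-led cluster 50.6 and 62.1 CPM, the same order as for Oprm1.

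The striatum was among the areas with least Oprl1, at 34.9, 23.7, 32.6 and 34.6 CPM. With white matter at 22.3, 20.9, 23.7 and 31.2 CPM and choroid plexus at 22.2 and 34.1 CPM it formed the 3 areas called lower, where 7.24%, 4.62% and 9.69% of genes were called lower. Ventral over remaining striatum gave Oprl1 ratios of 1.84, 2.28, 1.60 and 1.82. Cortical layers were nearly level, with deep over upper ratios of 1.06, 1.18, 1.05 and 1.12.

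Pnoc, the nociceptin precursor gene, had its highest levels in the lateral septum and in the extended amygdala and hypothalamus. Only sets 2 and 3 held over 30 septal spots, in a cluster led by Lbhd2 and Ctxn3 with Zic1. Pnoc reached 169.8 CPM (159 to 181, 955 counts) in set 2 and 99.3 CPM (93.3 to 105, 1046 counts) in set 3, 8.48 and 4.22 times the other spots, where 1.47% of genes were called higher. The septal range overlapped that of the extended amygdala and hypothalamus, which reached 112 CPM, and septum over that area gave 2.09 in set 2 and 0.921 in set 3. A Pnoc count was present in 99.3% and 81.5% of septal spots, and in 72.3% and 49.2% after thinning. When spots were assigned by marker score instead of by cluster, 4 sets gave a septal value, the median log2 ratio moved from 2.58 to 1.81, and the lowest set had no difference.

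In the extended amygdala and hypothalamus, Pnoc stood at 57.9, 81.4, 108 and 112 CPM, with ratios to other spots of 3.77 to 5.61. At resolution 0.4 the log2 ratio of the lowest set was -0.18, which ended the call. The Baiap3- and Cartpt-led cluster held 75.5 CPM in set 2, 158 CPM in set 3 and 180.2 CPM in set 4. The Avp- and Oxt-led cluster held 47.2, 78.9 and 78.1 CPM and the Nts- and Sim1-led cluster 39.5, 31.8 and 63.0 CPM in sets 1, 3 and 4. The Gal- and Nts-led cluster, which was almost confined to set 2, held 89.4 CPM. Spots within the area varied by 2.33 to 3.79 times the squared deviation of counting error, with up to 35 Pnoc counts in a spot. Levels of set 1 were drawn from a different mix of clusters than those of set 2, and cluster makeup and level cannot be told apart in the value of the whole area.

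Unnamed spots led by Pvalb and Six3, present in sets 1 and 4, also held much Pnoc, at 55.9 and 90.9 CPM or 3.36 and 3.01 times the other spots, where 1.49% of genes were called higher. Gad1, Gad2, Sst and Pvalb were called higher in the same spots, whereas Vip, Lhx6 and Reln were called lower. Thalamic spots of those sets held 5.27 and 7.88 CPM of Pnoc, so the precursor and Oprm1 had opposite orders here. Oprm1 stood at 23.5 and 11.2 CPM in the Pvalb- and Six3-led spots, where it was called lower with 6.70% of genes.

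The striatum was nearly without Pnoc, at 0.985 CPM (0.649 to 1.43), 1.43 CPM (0.975 to 2.04), 1.05 CPM (0.711 to 1.49) and 2.18 CPM (1.37 to 3.30), on 27, 31, 31 and 22 counts. These were 0.0475, 0.0420, 0.0305 and 0.0607 times the other spots. A count was present in 4.20% to 4.65% of striatal spots and in 0.548% to 2.44% after thinning. The ventral striatum held 3.29, 4.61, 5.84 and 6.84 CPM on 11 to 22 counts, 3.14 to 5.58 times the remaining striatum with all 4 intervals above 1. Against all other spots Pnoc was called lower there, with 2.71% of genes. White matter (8.30 to 11 CPM) and the Spp1- and Etnppl-led spots (3.26 to 5.33 CPM) completed the 5 areas with lower Pnoc. The shares of all genes called lower were 7.24% in the striatum, 4.62% in white matter and 5.23% in the Spp1- and Etnppl-led spots. The receptor Oprl1 and its ligand precursor were both called lower in the striatum and both called higher in the extended amygdala and hypothalamus, where neither call held at resolution 0.4. In the septum Pnoc was called higher and Oprl1, at 2.27 and 1.53 times other spots, was not. The thalamus differed, with Oprl1 at 120.3 and 111 CPM and Pnoc called lower in a comparison where 5.21% of genes were.

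In the cortex, Pnoc stood at 13, 18.8, 12.7 and 19.3 CPM in upper and 12, 11.7, 12.6 and 15 CPM in deep layers. Deep over upper layers gave 0.929, 0.622, 0.989 and 0.779, with the intervals of sets 2 and 4 below 1. Pnoc followed the summed level of 8 interneuron genes (Gad1, Gad2, Sst, Pvalb, Vip, Npy, Lhx6 and Reln). From the lowest to the highest of 3 equal parts of cortical spots ranked by that sum, Pnoc went from 7.94 to 16.8, 11.1 to 17.1, 8.45 to 16.9 and 10.6 to 21.7 CPM in sets 1 to 4. The ratios were 2.12, 1.54, 2.00 and 2.06. A ratio of at least 1.5 in all 4 sets, again a limit chosen after the values were seen, was met by 0.296% of 10136 genes. Oprm1 gave 1.43, 1.57, 1.13 and 1.96 in the same ranking, with the interval of set 3 including 1, and Oprd1 gave 1.17, 1.12, 1.19 and 1.19, with that of set 2 including 1. Oprk1 gave 1.19, 1.38, 0.805 and 1.21 and Oprl1 0.982, 1.13, 1.07 and 1.01, and differences between the genes were not tested. Median depths of the lowest and highest parts were 70357 and 69756 in set 1 and 36368 and 34535 in set 4.

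Which interneuron gene was used made a difference for Pnoc. Spots ranked by Npy alone gave Pnoc ratios of 1.97 to 2.49, by Gad2 1.91 to 2.43, by Gad1 1.42 to 1.70 and by Reln 1.23 to 2.10, each with the interval above 1 in 4 of 4 sets. Ranked by Pvalb they gave 0.904 to 1.09, with an interval above 1 in 0 sets, by Sst 0.972 to 1.22 in 1 set, by Lhx6 0.948 to 1.23 in 1 set and by Vip 1.06 to 1.64 in 2 sets. Sst and Pvalb made up 36.4% and 19.3% of the summed list. The rankings pooled upper and deep layers, and Vip was called lower in deep than in upper layers, with 0.808% of all genes. The part of layer in these ratios was not tested. The interneuron genes, unlike the striosome list, were not barred from the genes that set the clusters, and Npy was a clustering gene.

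**Figure D4:**
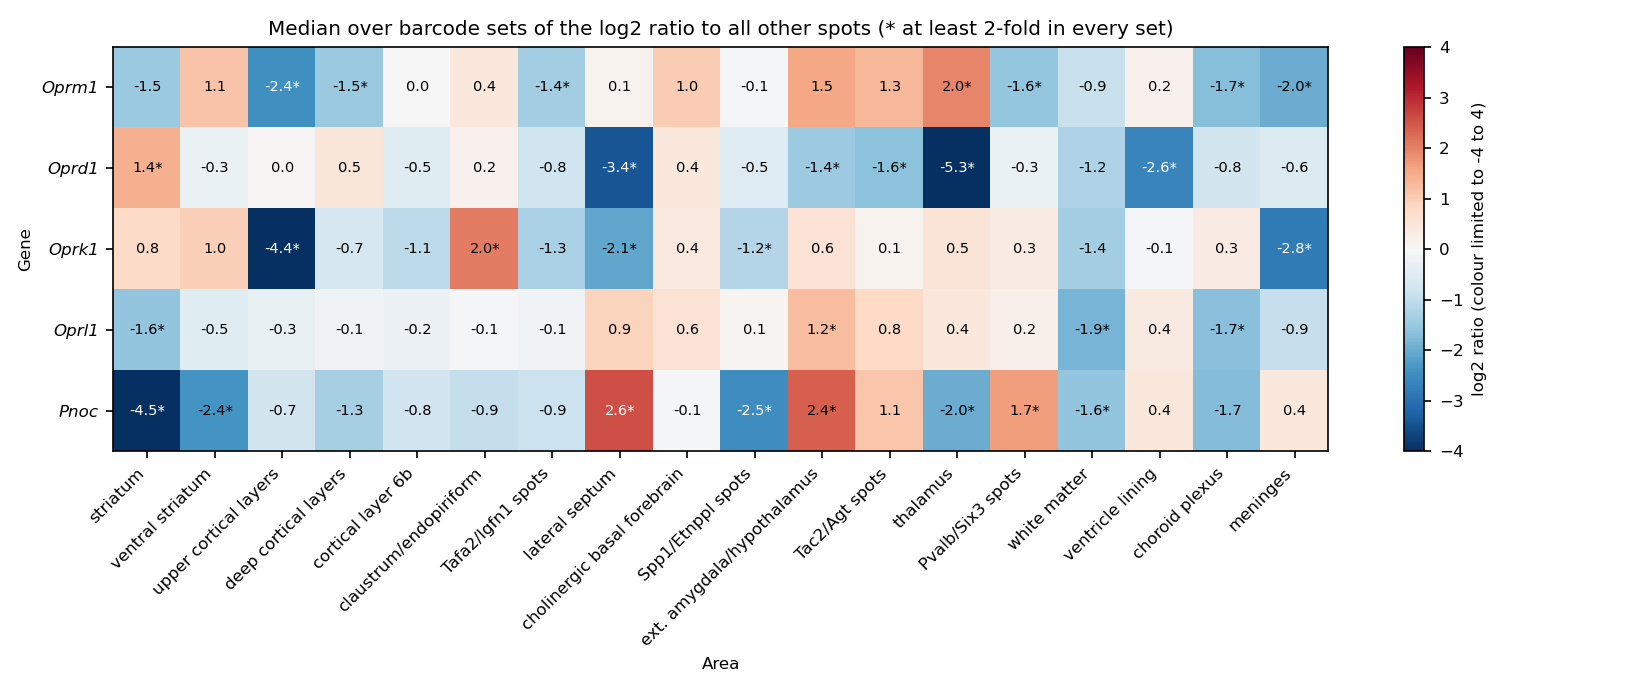
Median over barcode sets of the log2 ratio of each gene (rows) in each area (columns) to all other spots of the same set; red is higher, blue is lower, and an asterisk marks a difference of at least 2-fold in every set with at least 30 spots. Thalamus combines the highest Oprm1 with the lowest Oprd1, and the striatum the highest Oprd1 with the lowest Pnoc.

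Across the 18 areas, the median levels of Oprl1 and Pnoc had a correlation of 0.64, those of Oprm1 with Oprl1 0.60 and with Oprk1 0.59, and those of Oprm1 with Oprd1 -0.47 (Pearson's r of log2(CPM + 1)). These describe areas that share the same sections and depths and are not independent samples. By the same measure the genes most like Oprm1 were Ctxn2 (0.86), Tunar (0.86), Eif3k (0.85), Glra2 (0.84) and Gap43 (0.81), and those most like Oprd1 were Robo2 (0.89), Abcb9 (0.84), Npy (0.84), Me3 (0.81) and Chrm4 (0.81). Oprk1 had weaker company, led by Cntnap3 (0.76), Nipal3 (0.73), Hs3st5 (0.73), Dpysl5 (0.72) and Adcy3 (0.70). Oprl1 was most like Cmtr1 (0.96), Rhov (0.95), Tmx4 (0.95), Magee1 (0.94) and Disp2 (0.94), and Pnoc most like Tigd5 (0.86), Frmpd3 (0.83), Slit1 (0.83), Ckap4 (0.82) and Polr3gl (0.81).

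Other genes of opioid signalling were read from a list of 24 genes, of which 20 had a mean of at least 10 CPM. In the striatum, 2 of 20 were called higher and 7 lower, against 2.94% and 7.24% of all genes, and the median log2 ratio was -0.33 against -0.09 over all genes tested. The 2 were precursors of opioid peptides: Penk, which yields enkephalins, held 2725 to 3126 CPM (11.4 to 16.2 times other spots), and Pdyn, which yields dynorphins, held 71.5 to 335 CPM (2.48 to 6.97 times). The enkephalin precursor and Oprd1 were thus both called higher in the striatum. The 7 lower genes were Pcsk1, a prohormone convertase, Gnai1, an inhibitory G protein subunit, the potassium channel subunits Kcnj3, Kcnj6 and Kcnj9, and the receptor kinases Grk2 and Grk3. Kcnj6 had striatal levels of 2.87 to 5.45 CPM, 0.0715 to 0.133 times other spots. In the ventral striatum Penk was called higher too, with 0.808% of genes, whereas Oprd1 stood at 0.761 to 0.872 times other spots.

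In the thalamus, where Oprm1 was highest, 0 of 20 list genes were called higher and 3 lower, against 2.35% and 5.21% of all genes: Penk (0.0162 to 0.0384 times other spots), Pdyn (0.0447 to 0.0963 times) and Pcsk1 (0.297 to 0.450 times). Kcnj9 stood at 1.71 to 1.90 times other spots, short of the limit. In the lateral septum, Grk5, a receptor kinase, was called higher at 4.42 to 4.44 times, and Penk, Pdyn, Pcsk2 and Kcnj9 were called lower, where 1.47% and 3.85% of all genes were called higher and lower. In the extended amygdala and hypothalamus 0 of 20 were higher and 2 lower, Penk and Pcsk2, against 1.68% and 2.87% of all genes. In the upper cortical layers, where Oprk1 was lowest, Kcnj3, Kcnj6 and Kcnj9 were called higher at 2.12 to 2.81 times, with 1.50% of genes, and Penk and Pdyn lower.

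Ventral and remaining striatum differed in 1 list gene, Pdyn, which was 2.21 to 2.67 times higher in ventral spots, while its receptor gene Oprk1 was not called. Of all genes, 1.16% were called higher and 0.306% lower in that comparison. Claustrum over deep cortical layers gave 1 call as well, Penk at 4.01 to 8.84 times, where 1.12% of all genes were called higher. In that comparison both Oprk1 and Oprm1 were called higher.

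Between barcode sets, whole-section levels of the 5 genes stayed within 2-fold. Oprm1 stood at 52.5, 33.0, 37.4 and 42.2 CPM, Oprd1 at 21.9, 33.5, 25.0 and 29.9 CPM and Oprk1 at 11.9, 13.9, 12.3 and 18.4 CPM. Oprl1 stood at 83.5, 70.7, 87.9 and 93.6 CPM, and Pnoc at 17.7, 27.7, 28.4 and 32.2 CPM. The highest exceeded the lowest set by 1.32-fold (Oprl1) to 1.82-fold (Pnoc), and 11.1% of genes differed by at least 2-fold over the sets. Sections with a thalamus or a septum differ in area content, so that these values mix content and level.

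Within the 13 areas held by all 4 sets, Oprl1 was past 2-fold between sets in 0 areas, Oprm1 and Pnoc in 3 each, and Oprd1 and Oprk1 in 6 each, where 10.5% to 26.6% of genes were past it per area, after 1 CPM was added to every level. Layer 6b was past it for 3 of the 5 genes, in a comparison where 15.6% of all genes were. Oprm1 there was lowest in set 4, at 26.5 CPM, and highest in set 1, at 57.9 CPM. Oprk1 and Pnoc had the opposite order, with 2.86 and 7.49 CPM in set 1 against 9.28 and 23.9 CPM in set 4. In the meninges, where 19.7% of genes were past it, Oprd1 was lowest in set 1 (7.78 CPM) and highest in set 4 (27.4 CPM). The cholinergic basal forebrain (14.1% of genes) was past it for Oprd1, at 19.4 to 45.4 CPM, and Oprk1, at 9.47 to 27.9 CPM. Pnoc was highest in set 4 in 10 of 13 areas and lowest in set 1 in 9. Oprk1 was highest in set 4 in 8 areas and lowest in set 1 in 9, and Oprd1 highest in set 4 in 9 and lowest in set 1 in 8. Oprm1 ran the other way, with set 4 lowest in 9 of 13 areas. Set 4 had the lowest median depth, 26444 counts per spot against 38181 to 52481 in the others, and set 1 the highest; the part of depth in these orders was not tested. Striatal Oprm1 was past 2-fold, at 28 CPM in set 2 and 13.2 CPM in set 4, whereas striatal Oprd1, at 46.9 to 66.7 CPM, was not.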

How the data were processed

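Raw counts per gene and spot were deposited by the authors as a single table. Per the labels' protocols the assay was Visium CytAssist for FFPE tissue, version 2, and the submitters' processing notes name Space Ranger and Seurat. The genome build, the probe set, program versions and any filter on spots are not given in the sources used here. The members and gene lists were chosen with earlier results of these data known. Endings of the spot names match no label, so p-values and genotype tests were not computed and no SDs are given.

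Spots under 500 counts were left out (1 spot). After scaling each spot to 10000 counts and taking logs, 2000 variable genes were centred within each set, and 30 principal components, 15 neighbours and Leiden clustering at resolution 0.8 gave 30 clusters. The members, the opioid, striosome and matrix lists, the Celsr genes and sex-linked genes were left out of the clustering genes. A cluster took the marker list with the highest mean log2 fold (10 CPM added). That mean had to be at least 0.4 and at least 0.1 above the next area's. At least 2 markers had to be at 2-fold, and a marker of the area had to be among the cluster's 20 leading genes. A striatal cluster whose ventral list averaged at least 0.2 was called ventral. These limits were set after the cluster markers were seen. Median depth per cluster ran from 17748 counts per spot (meninges) to 71837.

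Calls were limited to genes with a whole-section level averaging 10 CPM or more over the 4 sets. Intervals were exact Poisson for levels, Clopper-Pearson for shares and conditional binomial for ratios, at 95%; a count of 0 allows 3 counts. Named were the members, the fixed lists and the 5 genes with the highest correlation with each member over areas. Alternatives were resolutions of 0.4 and 1.2, no centring, a minimum of 2000 counts, areas by marker score, each set left out, TMM and RLE scaling, a minimum of 1 CPM, thinning, and striosome minus matrix genes. Claustral clusters matched by spots and the striosome sum without Nnat were added after the data were seen. The scripts were tested on simulated data. There, clustering redrawn spots gave back the single clusters only in part, so values of single clusters depend on the clustering. Software was Python 3.11.15, scanpy 1.11.5, leidenalg 0.10.2, scikit-learn 1.9.0, scipy 1.17.1, and edgeR 4.0.16 for scaling factors only.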

Additional observations from a re-analysis of the deposited data

How the results depend on the processing

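Under the alternatives, 284 log2 ratios of 27 pairs of member and area were recomputed. Each move was compared with the spread between sets or with the counting error, whichever was larger. By this limit, 234 ratios moved by less, 50 moved by more and 0 changed sign where called. Of 24 called pairs of member and named area, 10 stayed called under every alternative that gave a value: Oprm1 in thalamus and upper cortex, Oprd1 in striatum, thalamus, septum and ventricle lining, Oprk1 in upper cortex, Oprl1 in striatum, and Pnoc in both striatal areas. These were not tried alike. Oprd1 in the ventricle lining had no value at resolution 0.4, without centring, or without set 3 or set 4. Pnoc in the ventral striatum had none at resolution 0.4 or without centring. Calls in thalamus and septum rested on 2 sets each. Calls of Oprm1 and Oprl1 in choroid plexus and of Oprl1 and Pnoc in white matter ended under 4 or more alternatives each. At resolution 0.4 the extended amygdala and hypothalamus lost the calls of Oprl1 (0.41 in the lowest set), Pnoc (-0.18) and Oprd1 (-0.60 in the highest set). The cause was not tested.

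Striatal Oprd1 had a median log2 ratio of 1.42, which was 1.26 without centring and 1.56 with RLE scaling. Claustral Oprk1 (2.05) was 0.08 at resolution 1.2 and 1.43 to 1.92 with a set left out; matched by spots it was 1.75 without set 4 and 1.92 without set 2, with no value without set 1 or set 3. Septal Pnoc (2.58) was 1.81 by marker score and 2.07 to 3.10 with a set left out. For Oprm1 by the striosome sum, the log2 ratio of set 2 went from 0.74 to 0.44 with matrix genes subtracted and to 0.42 without Nnat, and that of set 3 from 1.05 to 0.64 with matrix genes subtracted. Whole-section ratios between sets were smaller with TMM scaling for Oprd1, Oprk1, Oprl1 and Pnoc, 0.62 instead of 0.87 for Pnoc, and larger for Oprm1, 0.84 instead of 0.67. No value could be had in 19 cases, among them the claustrum at resolution 0.4 and without set 3 or set 4 by name. At a minimum of 1 CPM, 33 of the counts of genes called moved by over 1.5 times and 15 did not.

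No paired analysis was possible because no barcode set is tied to a mouse, genotype or replicate number. The edgeR and DESeq2 genotype fits were not run for that reason. Depth limits the low values: levels resting on under about 30 counts, such as Pnoc in striatum, Oprk1 in upper cortex and Oprd1 in thalamus, have wide intervals. Intervals leave out the variation between mice and between sections.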
